A study of Danio rerio with 4 samples.

Results

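The genes of DNA replication and deoxynucleotide supply were examined in the fins of zebrafish (Danio rerio), in regenerating and in uninjured tissue. The group was given as 47 gene names, and every gene row whose Ensembl gene name equals a given name, in any case, was taken. Of these names, 40 matched 42 of the 32434 gene rows, and all 42 rows passed the filter on low counts. The names mcm6 and rrm2 matched a pair of gene IDs each. The other 7 names (mcm2, mcm7, orc2, orc4, pole2, tk1 and dut) matched no row and were not analysed here. All fish were wild type of strain EK, with no transgene, drug or age in the labels. The regenerating group consisted of 2 pools of 10 fins collected 4 days after the fins had been cut to 50% of their length, and the uninjured group of 2 pools of 10 fins without amputation. The labels do not say which fin was used, how much stump was collected with the regenerate, or if the pools were from separate fish, so every p-value here reflects pool-to-pool spread only, which may be technical.

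A cell copies its genome once per division in an ordered series of steps. The origin recognition complex marks the start sites, Cdc6 and Cdt1 load the Mcm2-7 helicase there (licensing), and Cdc45 and the GINS complex turn the loaded helicase on. Polymerase alpha with primase starts each strand, polymerases delta and epsilon extend it on the ring-shaped clamp Pcna, and the nuclease Fen1 and the ligase Lig1 join the fragments of the lagging strand. Ribonucleotide reductase, thymidylate synthase and dihydrofolate reductase supply the deoxynucleotides. Most of these genes are transcribed in dividing cells around the entry into S phase, and in the amputated fin dividing cells are known in the blastema, the proliferating mesenchyme under the wound epidermis, and in the epidermis itself.

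Transcripts of nearly all the replication and deoxynucleotide genes measured were more abundant in the regenerating fins. Of the 42 genes, 40 were higher, 0 were lower and 2 were not called (edgeR quasi-likelihood test, Benjamini-Hochberg adjusted over all genes, threshold 0.05). Among all 25594 genes tested, 29.5% were called higher and 30.1% lower. The increase was at least 2-fold for 38 of the 42, against 15.0% of all tested genes. The regenerating pools both exceeded the uninjured pools for 41 of the 42, against 40.3% of all tested genes. The median log2 fold change of the 42 genes was 1.66 (3.16-fold), and that of all tested genes was -0.02. Levels below are counts scaled to a common library size with TMM factors (trimmed mean of M values) and given as CPM, per pool as pool 1 and pool 2, and fold changes are regenerating over uninjured with their standard error (SE). Levels are not compared between genes, since no gene length was used. In bulk RNA, more dividing cells and more of these transcripts per cell cannot be told apart.

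**Figure D1:**
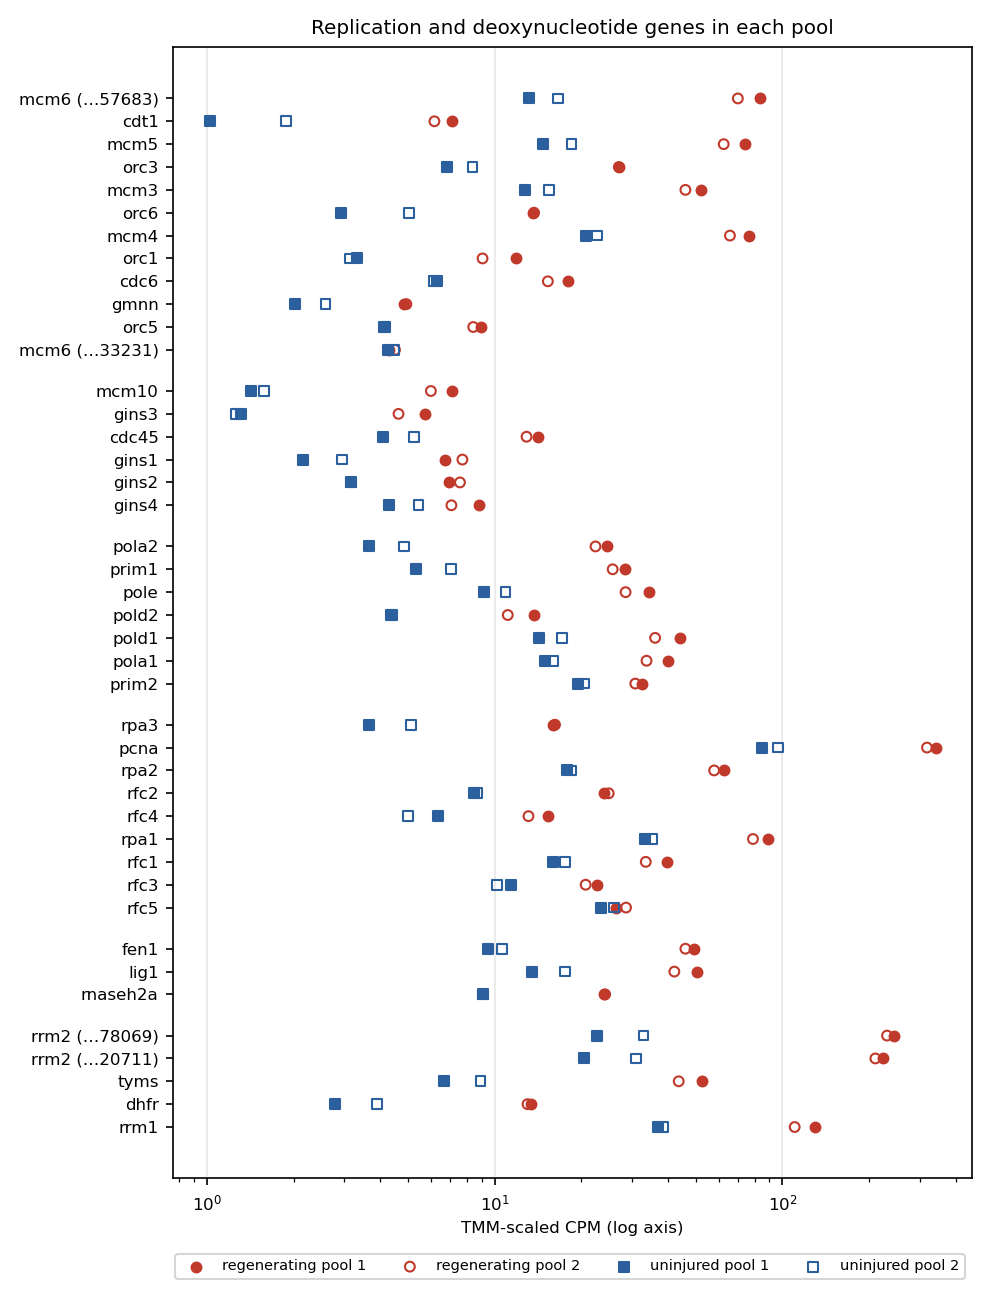
TMM-scaled CPM (log axis) of the 42 replication and deoxynucleotide genes in each of the 4 pools, grouped by role and ordered by fold change within a role; circles are regenerating and squares uninjured pools. The circles lie to the right of the squares for every gene except mcm6 ENSDARG00000033231, whose 4 values lie on top of each other.

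Together the 42 genes accounted for 0.217% and 0.208% of a regenerating library and for 0.0441% and 0.058% of an uninjured library. Reads of rrm2 (both gene IDs) and pcna made up 39.0% and 40.4% of that in the regenerating pools, and 25.3% and 27.4% in the uninjured pools. If the rrm2 IDs share reads, these percentages are too high. With a single rrm2 gene ID counted, the shares of the library were 0.191% and 0.182% against 0.0421% and 0.0548%.

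The libraries held 34290386 to 48247042 counts. Marker genes of several tissues differed between the same pools, and their part in the results was not tested. Whether each marker is specific to its tissue or cell type was not tested either. Their calls are to be read against the 29.5% of all tested genes called higher and the 30.1% called lower. The 7 epidermal markers summed to 23873 to 27278 CPM in regenerating and 62369 to 77183 CPM in uninjured pools, with 6 lower, 0 higher and 1 not called. Most of that sum was the keratin gene krt5, the marker not called (24334 and 20881 CPM in regenerating, 69109 and 54612 CPM in uninjured pools, edgeR adjusted p = 0.107). All 12 marker gene IDs of blastema and fin mesenchyme were higher (8738 to 9344 CPM summed, against 492 to 542). The names prrx1, tnc and fn1 entered with a pair of gene IDs each. Of 7 osteoblast markers, 6 were higher and 1 was lower (9610 to 11102 CPM against 295 to 348). Most of the osteoblast sum in regenerating pools was the collagen gene col10a1a (10705 and 9220 CPM, against 197 and 247 CPM in uninjured pools). Of 5 endothelial markers 4 were higher and 1 was not called (78.1 to 93.1 CPM against 28.0 to 29.7). The macrophage markers summed to 230.3 to 283 CPM in regenerating and 232 to 337 CPM in uninjured pools, with 1 of 4 higher, 1 lower and 2 not called. The largest part of that sum was cd68 (141 and 133 against 219 and 151 CPM), which was not called, nor was lcp1. The higher marker was marco, at 42.5 and 26.7 CPM in regenerating and 8.0 and 5.72 CPM in uninjured pools. The lower one, ptprc, had 21.4 and 17.6 against 47.2 and 37.5 CPM. The 3 neutrophil markers (79.0 to 80.3 CPM against 97.8 to 113; 1 higher, 2 lower) and the 4 lymphocyte markers (9.73 to 9.85 CPM against 13.4 to 16.6; 1 lower and 2 not called of 3 tested) had lower sums in regenerating fins. Most of the neutrophil sum was nccrp1 (69.0 and 67.4 CPM in regenerating, 105 and 89.3 CPM in uninjured pools). The other lower marker, lyz, had 0.26 and 0.337 against 3.36 and 3.08 CPM, and the higher one, mmp13a, 11.0 and 11.3 against 4.28 and 5.34 CPM. The lymphocyte marker rag1, a recombinase of lymphocyte precursors, was at 0 counts in each uninjured pool, and at 3 and 2 in the regenerating pools. Of 6 nerve and Schwann cell markers 5 were lower and 1 was not called (51.9 to 53.3 CPM against 127 to 139). Most of that sum was mbpb (42.0 and 45.6 CPM in regenerating, 91.5 and 82.9 CPM in uninjured pools). The log2 fold changes of the 5 lower markers ranged from -4.05 (mbpa) to -0.79 (sox10). Of 6 red blood cell marker names, only hbaa2 and alas2 matched a row, and the other globin names did not. These 2 markers summed to under 3 CPM in every pool, and the 1 that could be tested was not called. Marker names of other tissues that matched no row, among them cdh1, kdrl, csf1ra, mpx and lck, were left out as well.

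Origin recognition and licensing genes were higher in 11 of 12 cases, with a median log2 fold change of 1.75. The calls in this and each following role group are to be read against the 29.5% of all tested genes called higher. The cdt1 gene, whose product loads the helicase, stood at 7.09 and 6.17 CPM in regenerating and 1.02 and 1.88 CPM in uninjured fins. This was a log2 fold change of 2.20 ± 0.26 (SE, 4.60-fold, edgeR adjusted p = 0.000185). On the log2 scale the uninjured pools differed more from each other (pool 1 over pool 2, -0.88) than the regenerating pools did (0.2). Transcripts of gmnn, which encodes geminin, the inhibitor that binds Cdt1 after S phase has begun, rose from 2.02 and 2.58 CPM to 4.82 and 4.93 CPM (log2 1.08 ± 0.19, edgeR adjusted p = 0.00131). The loader gene cdc6 went from 6.32 and 6.13 CPM to 18.0 and 15.3 CPM, a log2 fold change of 1.42 ± 0.14.

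Among the origin recognition subunits measured, orc3 rose by 1.83 ± 0.15 on the log2 scale, from 6.80 and 8.37 CPM to 27.0 CPM in both regenerating pools. The smallest increase was that of orc5, from 4.12 and 4.17 to 8.95 and 8.42 CPM (1.07 ± 0.15). The gene of the largest subunit, orc1, which is known in mammalian cells to be lost from chromatin after S phase begins, rose from 3.33 and 3.14 to 11.9 and 9.07 CPM (1.70 ± 0.18). For orc6 the log2 fold change was 1.78 ± 0.23, with uninjured pools at 2.91 and 5.05 CPM and regenerating pools at 13.6 and 13.7 CPM.

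The helicase subunit genes mcm3, mcm4 and mcm5 rose by 1.81 ± 0.15, 1.71 ± 0.14 and 2.04 ± 0.16 on the log2 scale. The gene with the largest change in the licensing group was mcm6 (ENSDARG00000057683), at 83.8 and 70.0 CPM in regenerating and 13.2 and 16.6 CPM in uninjured fins, a log2 fold change of 2.37 ± 0.16 (5.18-fold, edgeR adjusted p = 1.32e-05). A second gene ID with the name mcm6 (ENSDARG00000033231) had 4.30 and 4.50 CPM in regenerating and 4.25 and 4.46 CPM in uninjured fins. Its log2 fold change was 0.01 ± 0.16 (edgeR adjusted p = 0.944), its pools overlapped between the groups, and it was called under none of the 10 alternatives in which it was tested. How reads that fit several genes were assigned is not given in the sources used here. The sequences of these gene IDs were not compared, so whether reads were split between them is uncertain.

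**Figure D2:**
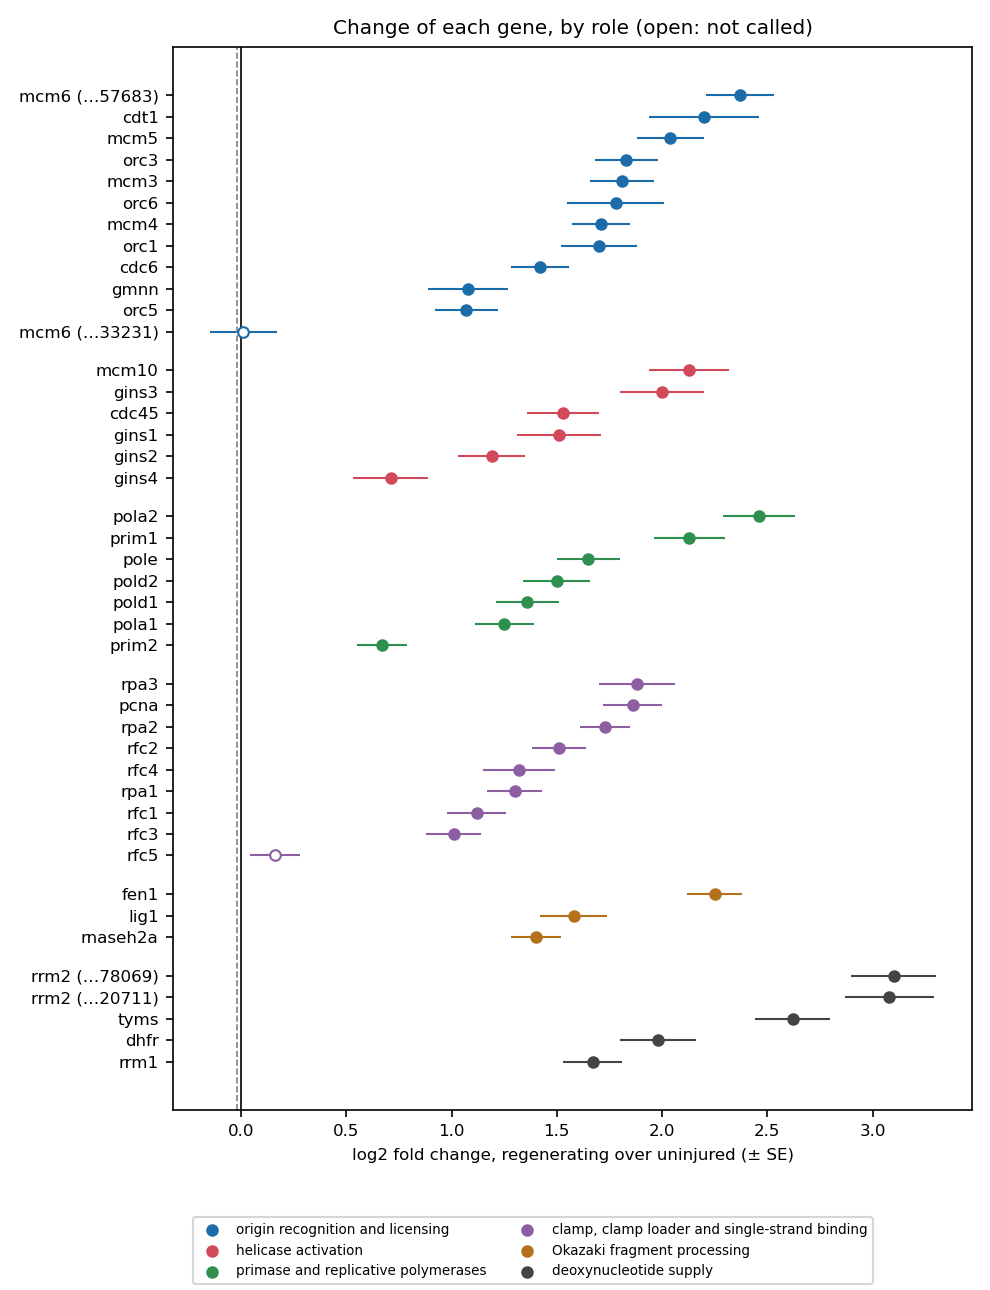
Log2 fold change of each gene, regenerating over uninjured, with its standard error (bars), by role; filled points were called higher and open points were not called. The solid line is at 0 and the dashed line at the median of all tested genes (-0.02), and the open points are rfc5 and mcm6 ENSDARG00000033231.

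All 6 genes of helicase activation were higher, with log2 fold changes from 0.71 to 2.13. The largest change was that of mcm10, a factor needed for the helicase to start moving, which stood at 7.11 and 6.0 CPM in regenerating and 1.42 and 1.58 CPM in uninjured fins (2.13 ± 0.19, edgeR adjusted p = 4.42e-05). The helicase cofactor cdc45 had the most reads of this group in the regenerating pools and rose from 4.09 and 5.25 to 14.1 and 12.9 CPM (1.53 ± 0.17). The log2 fold changes of the 4 subunit genes of the GINS complex ranged from 0.71 to 2.00. For gins3 the pools stood at 5.70 and 4.63 against 1.31 and 1.26 CPM (2.00 ± 0.20), and gins1 and gins2 rose by 1.51 ± 0.20 and 1.19 ± 0.16. The smallest change was that of gins4, with 8.85 and 7.07 CPM against 4.30 and 5.43 CPM (0.71 ± 0.18, edgeR adjusted p = 0.0103). Its call was lost without regenerating replicate 1 (log2 0.55, edgeR adjusted p = 0.0821), and it was the single gene of the 42 whose call changed in any of the 11 alternatives.

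The 7 primase and replicative polymerase genes were all higher, with a median log2 fold change of 1.5. The gene of the polymerase alpha accessory subunit, pola2, had 24.5 and 22.4 CPM in regenerating and 3.67 and 4.84 CPM in uninjured fins, a log2 fold change of 2.46 ± 0.17 (5.51-fold, edgeR adjusted p = 1.32e-05). The catalytic subunit gene pola1 rose from 15.0 and 15.9 to 40.0 and 33.7 CPM (1.25 ± 0.14). Of the primase genes, prim1, which encodes the catalytic subunit, stood at 28.4 and 25.7 against 5.33 and 7.04 CPM (2.13 ± 0.17), and prim2 at 32.6 and 30.8 against 19.4 and 20.5 CPM (0.67 ± 0.12, edgeR adjusted p = 0.00161). The leading and lagging strand polymerases lay between these values. The catalytic subunit gene pold1 of polymerase delta had the most reads of this group in the regenerating pools. It rose from 14.3 and 17.1 to 44.1 and 36.1 CPM (1.36 ± 0.15), and its partner pold2 rose from 4.36 and 4.40 to 13.7 and 11.1 CPM (1.5 ± 0.16). The polymerase epsilon gene pole rose by 1.65 ± 0.15.

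Of the 9 genes of the clamp, its loader and the single-strand binding complex, 8 were higher. The clamp gene pcna, a common marker of dividing cells, stood at 341 and 318 CPM in regenerating and 85.2 and 96.4 CPM in uninjured fins (log2 1.86 ± 0.14, 3.63-fold, edgeR adjusted p = 2.41e-05). The clamp loader subunit genes rfc1, rfc2, rfc3 and rfc4 rose by 1.12 ± 0.14, 1.51 ± 0.13, 1.01 ± 0.13 and 1.32 ± 0.17. The subunit gene rfc5 had 26.5 and 28.6 CPM in regenerating and 23.4 and 25.9 CPM in uninjured fins, a log2 fold change of 0.16 ± 0.12 that was not called (edgeR adjusted p = 0.290) under any of the 11 alternatives. The regenerating pools of rfc5 lay just above the uninjured pools. The genes rpa1, rpa2 and rpa3, which encode the trimer that coats single-stranded DNA, rose by 1.30 ± 0.13, 1.73 ± 0.12 and 1.88 ± 0.18. The largest change of this group, rpa3, went from 3.67 and 5.11 to 16.0 and 16.2 CPM.

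The 3 genes of Okazaki fragment processing were higher. The flap endonuclease gene fen1 had 49.2 and 46.0 CPM in regenerating and 9.47 and 10.6 CPM in uninjured fins, and its edgeR adjusted p = 6.41e-06 was the smallest of all 42 genes (log2 2.25 ± 0.13). The ligase gene lig1 rose from 13.5 and 17.5 to 50.3 and 42.1 CPM (1.58 ± 0.16). For rnaseh2a, the catalytic subunit of the nuclease that removes ribonucleotides from DNA, the pools of each group nearly coincided, at 24.0 and 24.2 against 9.10 and 9.13 CPM (1.40 ± 0.12).

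The largest increases of the 42 genes were in deoxynucleotide supply, where all 5 gene IDs were higher with a median log2 fold change of 2.62 (rrm2 entering under both IDs). The small subunit of ribonucleotide reductase, which sets the enzyme's activity in S phase, is encoded by rrm2. Its gene ID ENSDARG00000078069 had 245 and 231 CPM in regenerating and 22.6 and 32.9 CPM in uninjured fins, a log2 fold change of 3.10 ± 0.20 (8.58-fold, edgeR adjusted p = 9.59e-06). The gene ID ENSDARG00000020711 had a log2 fold change of 3.08 ± 0.21. Counts of the former were 1.06 to 1.1 times those of the latter in every library, and whether these IDs share reads was not tested. Both IDs enter the counts and medians of the 42 genes and of this group, although they may not be separate evidence. The large subunit gene rrm1 rose from 37.0 and 38.5 to 130.1 and 110.3 CPM (1.67 ± 0.14). The thymidylate synthase gene tyms, which makes the thymine nucleotide, rose from 6.66 and 8.92 to 52.4 and 43.6 CPM (2.62 ± 0.18, 6.16-fold). Dihydrofolate reductase, which regenerates the folate that this enzyme uses up, is encoded by dhfr, and its level rose from 2.78 and 3.90 to 13.4 and 13.0 CPM (1.98 ± 0.18).

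Partner genes were compared within each library as log2 ratios of their levels, with the mean of both IDs for rrm2. The ratio of rrm2 to rrm1 was higher in both regenerating pools by a mean of 1.45 on the log2 scale (2.73-fold), that of cdt1 to gmnn by 1.16 (2.24-fold) and that of prim1 to prim2 by 1.48 (2.78-fold). The ratio of pola1 to pola2 fell by 1.22. In these pairs the groups did not overlap. The ratio of pold1 to pold2 differed by -0.14, with regenerating values of 1.68 and 1.70 just under the uninjured values of 1.71 and 1.95. For orc1 over the mean of orc3 and orc5 the difference was 0.23 and the groups overlapped. The remaining ratios were chosen after their values were seen: the mcm6 IDs differed by 2.36 (ENSDARG00000057683 over ENSDARG00000033231), gins3 over gins4 by 1.29 and rfc2 over rfc5 by 1.34. The exact two-sided permutation test gave p = 0.33 for the 8 ratios whose groups did not overlap, which is the smallest value that 2 against 2 libraries allow, and p = 0.667 for orc1 (0.375 and 0.667 after Benjamini-Hochberg adjustment over the 9 ratios). With 2 against 2 libraries this test cannot pass a threshold of 0.05, so it gives no call on any of these ratios.

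**Figure D3:**
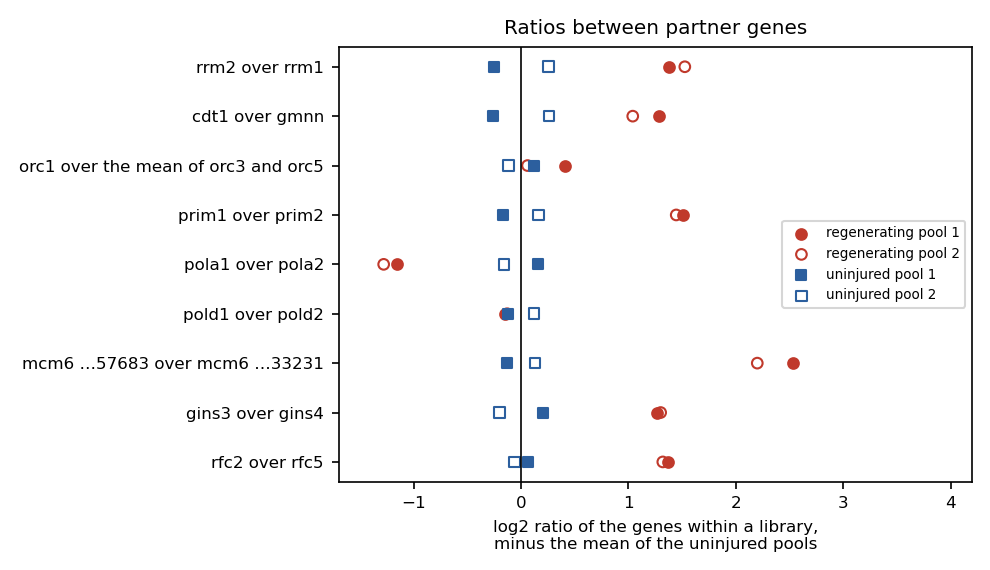
Log2 ratio of partner genes within each library, minus the mean of the uninjured pools, for 9 ratios; circles are regenerating and squares uninjured pools. The prim1 to prim2 and rrm2 to rrm1 ratios lie to the right of the uninjured pools, and pola1 to pola2 lies to the left. The ratios of pold1 to pold2 and of orc1 to the mean of orc3 and orc5 lie near 0.

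The pools of a group also differed from each other in a common direction for these genes. In the uninjured group pool 2 lay above pool 1 for 36 of the 42 genes, where 49.5% of all tested genes did so. The median ratio was 1.12-fold over the 42 genes and 1.40-fold over the deoxynucleotide genes, with both rrm2 IDs counted. In the regenerating group pool 2 lay above pool 1 for 9 of the 42, against 48.8% of all tested genes. The largest differences between uninjured pools were those of cdt1 and orc6, with log2 ratios of pool 1 over pool 2 of -0.88 and -0.79. With scaling by total counts alone the numbers were 41 and 12 of 42, against 73.4% and 63.4% of all tested genes. The epidermal marker sum was higher in pool 1 of both groups. It was 77183 against 62369 CPM in uninjured fins, where pool 1 had the lower values for most of the 42 genes. In regenerating fins it was 27278 against 23873 CPM, and there pool 1 had the higher values for most of them. Most of the sum was krt5 (69109 and 54612 CPM in uninjured, 24334 and 20881 CPM in regenerating pools). In the regenerating pair krt4, cldni, epcam and evpla were higher in pool 2, and tp63 and col17a1a in pool 1. Of the uninjured pair, only evpla was higher in pool 2. Blastema and osteoblast marker sums were higher in regenerating pool 1 and uninjured pool 2, as were most of the 42 genes. The blastema sums were 9344 and 8738 CPM in regenerating and 492 and 542 CPM in uninjured pools. Those of osteoblasts were 11102 and 9610 against 295 and 348 CPM. Endothelial, macrophage, neutrophil and lymphocyte sums were higher in pool 1 of both groups. Nerve and red blood cell sums were higher in regenerating pool 2 and uninjured pool 1. The part of these markers in the difference between pools was not tested.

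**Figure D4:**
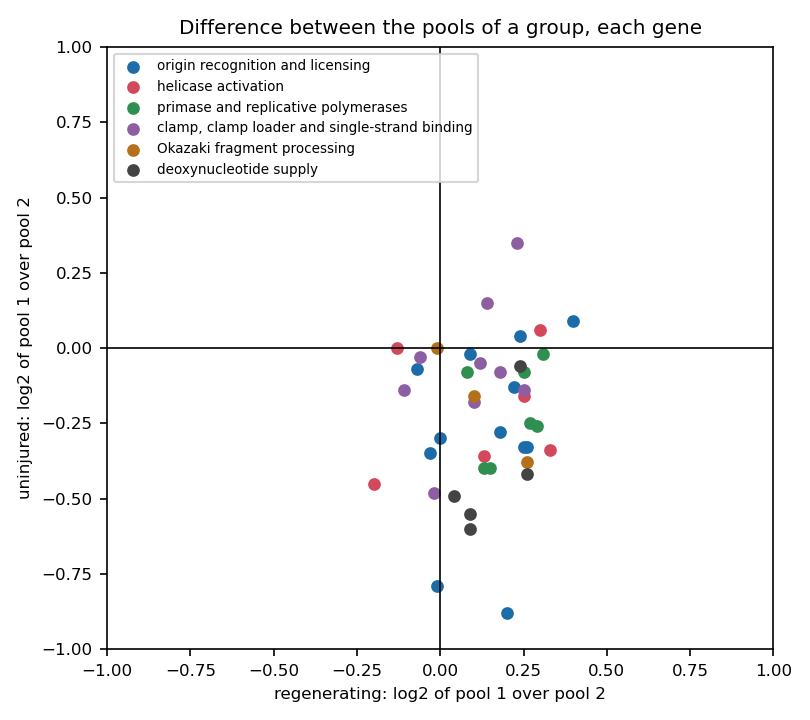
Each point is a gene, placed by its log2 ratio of pool 1 over pool 2 among regenerating fins (horizontal) and among uninjured fins (vertical), and coloured by role. Most points lie in the lower right part, higher in regenerating pool 1 and in uninjured pool 2.

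Genes of neighbouring processes were read from 5 further lists. Where a name had a pair of gene IDs, such as ssrp1, each tested ID was counted as a gene. Together 70 of their 105 tested genes were higher and 4 were lower, with a median log2 fold change of 0.84, where 29.5% and 30.1% of all tested genes were called higher and lower. Of 29 other replication factors, 25 were higher, 1 was lower and 3 were not called (median 1.01). The type II topoisomerase gene top2a rose by 3.97 ± 0.17 on the log2 scale. The exonuclease gene exo1 rose by 3.06 ± 0.25, from 0.708 and 1.26 to 8.59 and 7.78 CPM, and chtf18, which encodes the large subunit of an alternative clamp loader, by 2.39 ± 0.17. The name top1, of the type I topoisomerase, had a gene ID that rose (ENSDARG00000070545, 1.61 ± 0.19) and a less counted ID that fell by 0.94 ± 0.19 (ENSDARG00000086775). The origin firing kinase gene cdc7 rose from 2.10 and 2.23 to 6.32 and 7.24 CPM (1.65 ± 0.17, edgeR adjusted p = 9.52e-05). Its activating subunit gene dbf4 had 36.7 and 44.1 CPM in regenerating and 59.7 and 35.8 CPM in uninjured fins, and these groups overlapped (-0.24 ± 0.22, edgeR adjusted p = 0.377). With single libraries left out, the log2 fold change of dbf4 ranged from -0.53 to 0.18, so its sign depended on the library left out.

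All 10 genes of chromatin assembly in S phase were higher (median 1.48), against 29.5% of all tested genes. The subunit genes chaf1a and chaf1b of the histone chaperone that travels with Pcna rose by 2.65 ± 0.14 and 2.54 ± 0.18, and rbbp4, which encodes a histone-binding protein of the same complex, by 1.99 ± 0.15. Of chaf1a there were 83.7 and 72.3 CPM in regenerating and 13.2 and 11.5 CPM in uninjured fins.

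The other deoxynucleotide genes moved in different directions. Of 15 tested, 6 were higher, 1 was lower and 8 were not called (median 0.26), to be read against the 29.5% of all tested genes called higher. The thymidylate kinase gene dtymk rose from 2.41 and 2.17 to 13.6 and 15.4 CPM (log2 2.66 ± 0.16), and the deoxycytidine kinase gene dck from 2.62 and 2.99 to 16.0 and 13.9 CPM (2.41 ± 0.16). The pyrophosphatase gene dctpp1, which clears modified cytosine nucleotides, rose by 1.44 ± 0.17. The gene samhd1, whose product breaks down deoxynucleotides in mammalian cells, fell from 28.8 and 33.8 CPM in uninjured to 10.6 and 10.5 CPM in regenerating fins (-1.57 ± 0.13, edgeR adjusted p = 3.67e-05). The alternative small subunit gene of ribonucleotide reductase, rrm2b, had 9.75 and 9.56 against 8.71 and 7.72 CPM and was not called (0.23 ± 0.14, edgeR adjusted p = 0.185), whereas with scaling by total counts alone it was called higher (0.45, edgeR adjusted p = 0.048). The mitochondrial nucleoside kinase genes dguok and tk2, picked after their values were seen, were not called (0.11 ± 0.15 and 0.26 ± 0.17).

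Of 34 genes that control entry into S phase, 22 were higher, 1 was lower and 11 were not called (median 0.69). Among all tested genes, 29.5% were called higher and 30.1% lower. The cyclin A2 gene ccna2 rose from 1.63 and 1.32 to 19.2 and 15.6 CPM (log2 3.55 ± 0.19, edgeR adjusted p = 4.54e-06). The gene fbxo5, which encodes an inhibitor of the anaphase-promoting complex, rose by 3.35 ± 0.18, and e2f8, which encodes an E2F-family repressor, by 2.80 ± 0.19. The cell cycle inhibitor gene cdkn1a was also higher, with 6.20 and 7.09 against 4.04 and 2.67 CPM (0.98 ± 0.21, edgeR adjusted p = 0.00443). Of the growth regulator myc, a gene ID fell by 1.03 ± 0.21 (ENSDARG00000007241) and another rose by 1.30 ± 0.13 (ENSDARG00000045695). The activator e2f1 and the cyclin ccne2 were not analysed here.

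The list of repair polymerases and ligases had 7 of 17 genes higher, 1 lower and 9 not called (median 0.31), to be read against the same 29.5%. The end-joining polymerase gene polq rose by 1.88 ± 0.19, the mitochondrial polymerase gene polg by 1.32 ± 0.16 and the strand-break sensor gene parp1 by 1.27 ± 0.18. The translesion polymerase gene rev3l had a log2 fold change of -0.32 ± 0.12 (edgeR adjusted p = 0.0449), a call that was lost without each of the 4 libraries in turn (edgeR adjusted p = 0.0795 to 0.290).

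**Figure D5:**
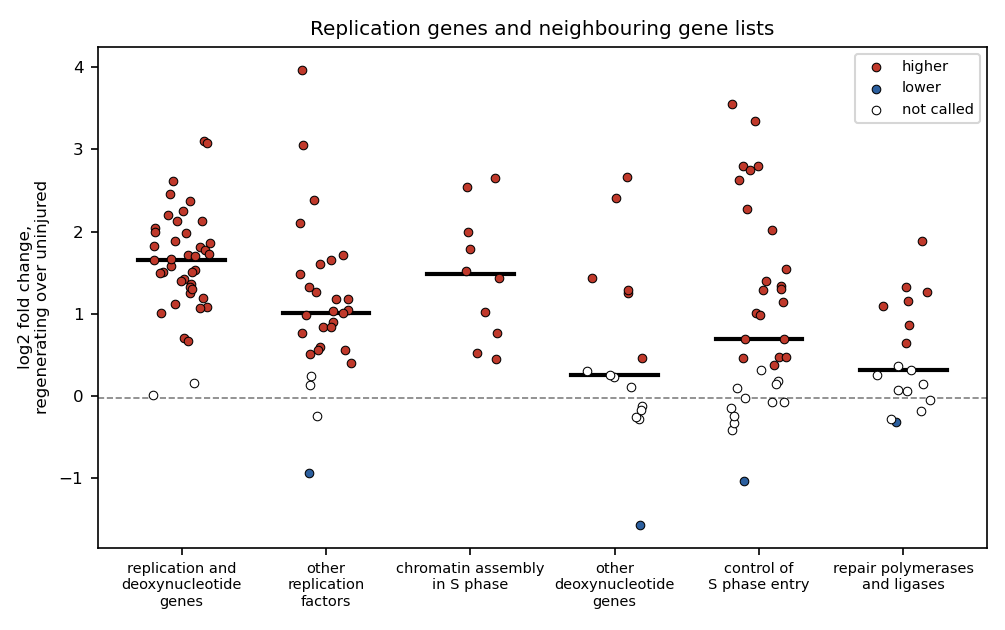
Log2 fold change, regenerating over uninjured, of each tested gene in the replication and deoxynucleotide group and in 5 neighbouring lists; each point is a gene ID, horizontal bars are list medians and the dashed line is the median of all tested genes (-0.02). Medians range from 1.66 in the replication and deoxynucleotide group to 0.26 in the other deoxynucleotide genes.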

How the data were processed

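The deposited tables hold raw counts of reads per Ensembl gene, 50 bp single-end per the labels' protocols, not normalized. The authors' tools were CASAVA, TopHat and edgeR with build Zv9 per the submitters' processing notes; per the file headers, reads were counted from TopHat's accepted hits. The sources used here do not state the counting program, annotation, versions or strand setting, so overlapping or near-identical genes are uncertain. Symbols came from a table that named 20769 gene rows (64.0%) and are printed here in lower case.

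Counts were filtered with filterByExpr (minimum count 10, minimum total 15), scaled by TMM (factors 0.87 to 1.11) and compared with edgeR's quasi-likelihood test (non-legacy estimation, group as the only term, Benjamini-Hochberg over 25594 genes). SE is the log2 fold change divided by the square root of F. No list was tested as a set. Tools were R 4.3.3, edgeR 4.0.16, DESeq2 1.42.0, limma 3.58.1, Python 3.11.15 and matplotlib 3.10.9. The pipeline was tested on simulated counts.

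The replication genes and all lists were chosen with earlier results of these data known. Genes printed in full were those with the largest and smallest change and the most reads in each role, those not called or not stable, and those in the ratios; from other lists, the 3 called genes with the largest rise, the 2 with the largest fall, and set genes (rrm2b, samhd1, ccna2, cdkn1a, cdc7, dbf4). Counts varied between pools of a group beyond sampling noise (chi-square per degree of freedom 17.7 and 37.3). The planned ratios with mcm2 and pole2 and the planned search of promoter sequences were not made. The planned ratio of orc1 to the mean of orc2 to orc5 was made with orc3 and orc5 only, since orc2 and orc4 matched no row.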

Additional observations from a re-analysis of the deposited data

How the results depend on the processing

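The count of replication and deoxynucleotide genes called higher was 40 of 42 with the legacy estimation, DESeq2, median-of-ratios size factors, total counts, no filter and the replicate block, and 39 to 40 with single libraries left out. At least 10 CPM in 2 libraries left 33 of them, of which 32 were higher. The count called lower was 0 in all 11 alternatives. Over all genes, that filter left 12466 genes, with 4384 called higher and 4461 lower in place of 7551 and 7693 of 25594. Under it the log2 fold changes of rfc5 and orc3 were 0.05 and 1.72 in place of 0.16 and 1.83. Scaling by total counts alone shifted the median of all genes by 0.21 on the log2 scale and that of the replication genes from 1.66 to 1.86, and 61.8% of all called genes were higher in place of 49.5%. In the other lists 70 genes were higher and 4 lower, with 59 to 69 and 3 to 6 when a library was left out. The labels do not say that a replicate number marks a shared batch, and deviations of same-numbered pools had a correlation of -0.0314 across genes. With the replicate block 7472 genes were higher and 7624 lower, and of the genes named, rev3l lost its call (edgeR adjusted p = 0.0545), as it did with median-of-ratios size factors, no filter, DESeq2 and total counts (adjusted p = 0.053, 0.0657, 0.0899 and 0.567). With 2 pools a group, a change such as that of rfc5 (0.16 ± 0.12) is not shown to be absent.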
